A study of Homo sapiens with 4 samples.

Results

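Messenger RNA levels of 9 genes of MHC class I antigen presentation were compared between PANC-1, a pancreatic ductal adenocarcinoma cell line, and PZT-2, a clone of it depleted of the histone variant H2A.Z. The genes were chosen by symbol for their place in the pathway: HLA-B, HLA-C, HLA-E, HLA-F, B2M, TAP1, TAP2, TAPBP and ERAP1. No rule on levels was used, but the choice was made with earlier results of these data known. All 9 had values and all passed the filter on low counts, among 15220 genes with values and 15100 genes tested. PANC-1 was the untransduced wild type line, with 2 libraries. PZT-2, also with 2 libraries, is 1 clone that carries lentiviral short hairpin RNAs under a U6 promoter against H2A.Z.1 and against both isoforms of H2A.Z.2, and it was selected with puromycin. Both were grown as unstimulated cultures in medium with fetal bovine serum and used at passages 12 to 13. With 1 clone, the knockdown, the selection and differences between clones of PANC-1 cannot be told apart. The p-values measure the spread between 2 libraries of each line, which the paper calls biological replicates, and not the spread between clones.

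MHC class I molecules show short peptides from inside the cell to CD8 T cells and natural killer cells. The proteasome cuts proteins into peptides, the TAP1 and TAP2 transporter carries them into the endoplasmic reticulum, ERAP1 trims their amino-terminal ends, and TAPBP (tapasin) holds an empty class I molecule at the transporter until a peptide binds. The class I molecule itself is a heavy chain, encoded by an HLA gene, paired with the invariant light chain beta-2-microglobulin, encoded by B2M. The genes are known for their shared response to interferon, and tumour cells often lose part of the pathway.

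Transcript levels are given as normalized counts, which are estimated read counts scaled for library size and composition with the TMM factors of edgeR, and compare libraries for 1 gene. Levels of different genes are ranked only as TPM, the share of transcripts in a library that a gene contributes after division by transcript length. Fold changes are PZT-2 against PANC-1, and "rose" or "fell" means an adjusted p under 0.05 in edgeR's quasi-likelihood test, adjusted over all 15100 genes. Errors of means are SD over 2 libraries, and SE is the standard error of a log2 fold change. The recovered counts came to between 12856503 and 15713272 per library. Of the targeted genes, H2AFZ (H2A.Z.1) fell from 6388 and 6032 to 2211 and 2257 normalized counts and H2AFV (H2A.Z.2) fell from 3342 and 3451 to 2589 and 2716 (edgeR adjusted p = 6.17e-05 and 0.00564). The adjusted p of H2AFV was 0.0569 without PZT-2 replicate 1 and 0.0684 with its most abundant transcript alone. The epithelial keratins KRT8, KRT18 and KRT19 were detected in every library and fell by 1.17, 0.81 and 0.73 on the log2 scale, while KRT7 and EPCAM did not pass the test. The 6 leukocyte markers summed to 1.70 to 1.87 TPM in PANC-1 and 2.46 to 3.81 TPM in PZT-2, and PTPRC and CD3E had no value. CD14 rose from 3.38 and 0 normalized counts in PANC-1 to 16.1 and 31.6 in PZT-2 (edgeR adjusted p = 0.0234). ITGAM, more abundant than CD14, read 45.0 and 42.5 in PANC-1 and 25.2 and 37.6 in PZT-2 and did not pass the test. Of 3 endothelial and 4 fibroblast markers, PECAM1 and PDGFRB alone had values, at most 15.1 normalized counts in any library. In bulk RNA, more cells with a transcript and more transcript per cell cannot be told apart.

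Sequences upstream of the genes are shown first, since HLA-B and HLA-C, of which HLA-B alone passed the test, are alike there. They were taken from the RefSeq promoter table for GRCh38.p14, which held entries for 8 of the 9 members, all but HLA-E, and the first entry of each gene was used. The first set is the light chain gene and 2 heavy chain genes, B2M and HLA-B, which rose in PZT-2, and HLA-C, which did not pass the test. Each run is 5′ to 3′ on the gene's strand and stops before the first base of the gene in the GENCODE 29 annotation. Capitals mark matches on either strand to AANNGAAA, the core letters of binding sites for interferon regulatory factors.
B2M (chr15:44711267-44711486, plus strand): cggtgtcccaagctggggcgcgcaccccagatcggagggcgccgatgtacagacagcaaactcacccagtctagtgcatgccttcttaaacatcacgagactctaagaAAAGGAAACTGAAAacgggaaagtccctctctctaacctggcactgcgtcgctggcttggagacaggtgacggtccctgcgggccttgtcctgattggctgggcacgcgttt
HLA-B (chr6:31357189-31357429, minus strand): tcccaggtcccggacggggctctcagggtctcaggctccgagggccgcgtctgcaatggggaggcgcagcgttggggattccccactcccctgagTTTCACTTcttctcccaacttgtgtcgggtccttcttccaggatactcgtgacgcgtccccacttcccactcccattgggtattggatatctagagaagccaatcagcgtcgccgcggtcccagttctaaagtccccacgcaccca
HLA-C (chr6:31272131-31272342, minus strand): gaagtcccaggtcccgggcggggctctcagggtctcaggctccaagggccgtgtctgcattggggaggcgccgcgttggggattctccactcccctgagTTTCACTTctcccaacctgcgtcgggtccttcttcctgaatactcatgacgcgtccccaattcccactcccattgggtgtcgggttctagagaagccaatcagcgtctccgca
The second set gives 30 bases around the same letters in the other members that held a match within 250 bases before the RefSeq start.
HLA-F (chr6:29723267-29723296, plus strand): tctccccagagTTTCTCTTtctctcccaac
TAP1 (chr6:32853817-32853846, minus strand): gcggccgcTTTCGATTTCGCTTtcccctaa
TAP2 (chr6:32838780-32838809, minus strand): ggctggggAAGCGAAAGCGAAAgctgcccg
TAPBP (chr6:33314079-33314108, minus strand): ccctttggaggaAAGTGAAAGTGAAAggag

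Matches to AANNGAAA were found in 7 of the 8 member promoters with an entry, against 20.3% of 35116 promoter entries of the same 250 bases. ERAP1 held no match in its first entry and 2 overlapping matches in its second, and the share of all promoters counts every entry. TAP1 also has a further entry, which held no match. B2M, TAP1, TAP2 and TAPBP each held 2 overlapping matches, and the HLA genes held 1 each. In HLA-B and HLA-C the matched letters were the same, TTTCACTT, and lay at -155 to -148 and at -151 to -144 from the start. CCAAT, the letters bound by NF-Y, was found on either strand in 6 of 8 members against 32.0% of all entries, and TGACG, the core letters of a cyclic AMP response element, in 4 of 8 against 21.2%. GGGNATTCC, a form of the NF-kappaB site, was found in HLA-B alone of the 8, against 0.692% of all entries. Only this form was searched. The first entries of TAP1 and TAPBP hold gggactttcc and ggggatttcc, which it does not match, so other members may hold other forms of the site. Over the 250 bases HLA-B and HLA-C were identical at 226 positions (89.0% of the alignment, gaps included). The motifs were chosen after the sequences were seen, and a match is a description of letters and not a bound site.

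B2M, HLA-E and HLA-B rose in PZT-2 and ERAP1 fell, while HLA-C, HLA-F, TAP1, TAP2 and TAPBP did not pass the test. The rises were 1.70-fold for B2M, 1.59-fold for HLA-E and 1.42-fold for HLA-B, and ERAP1 was at 0.690 of its PANC-1 level. Among all genes tested, 28.4% were called, 14.7% higher and 13.7% lower, so that 3 of 9 members higher and 1 of 9 lower are read against those shares. Without PANC-1 replicate 1 the count of members called higher was 5, with HLA-C and TAPBP added, and without PZT-2 replicate 2 it was 2, with HLA-B lost. For 5 members both PZT-2 libraries were above both PANC-1 libraries, as they were for 33.3% of all genes, and for 1 both were below, as for 33.0% of all genes. The median log2 fold change of the 9 members was 0.14, against 0.00115 over all genes.

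**Figure D1:**
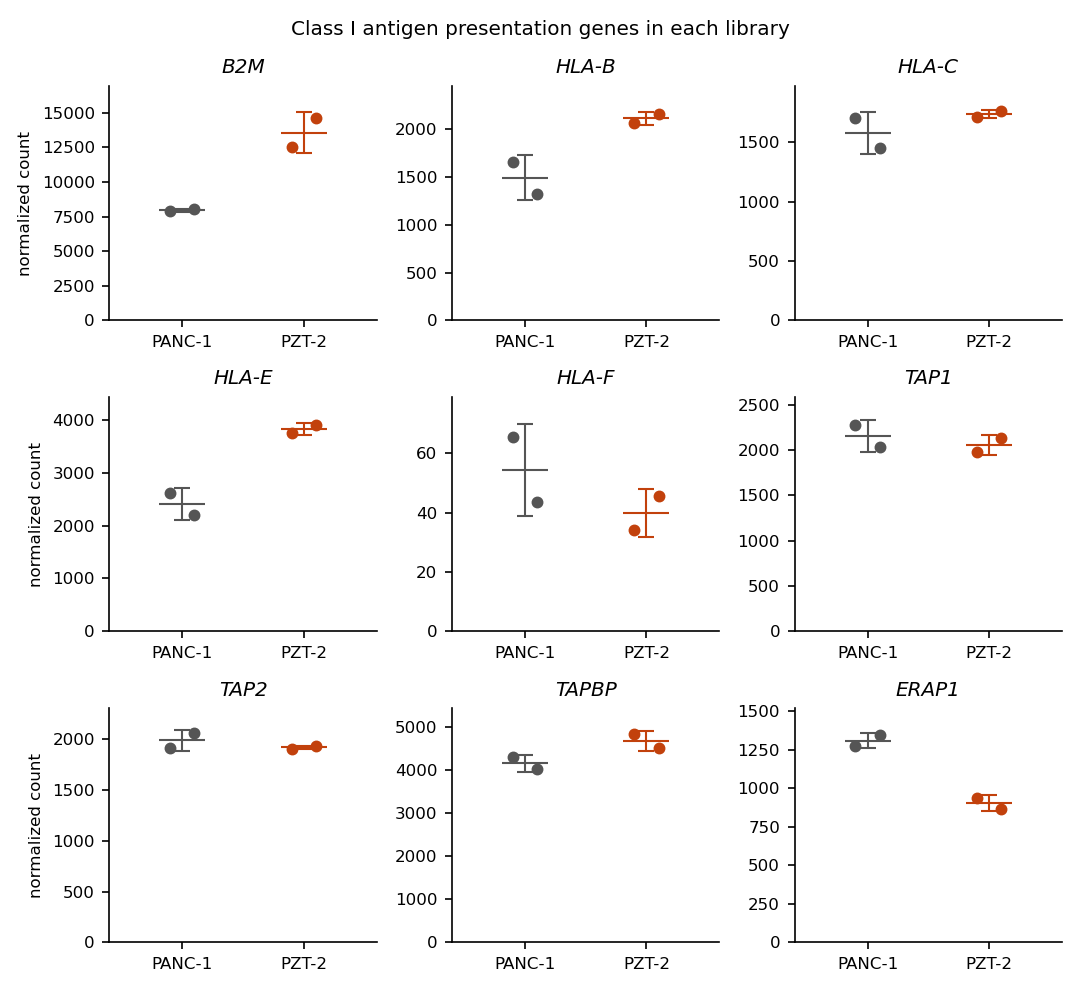
Normalized counts (y axis, linear, from 0) of the 9 genes in each of the 2 PANC-1 (grey) and 2 PZT-2 (orange) libraries. Points are libraries, the long bar is the mean and the error bar is SD. The points of the lines are apart, PZT-2 above, for B2M, HLA-B, HLA-C, HLA-E and TAPBP, and apart with PZT-2 below for ERAP1.

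B2M, the light chain gene of class I molecules, had the highest level of the 9 genes, 654 ± 24.0 TPM in PANC-1 and 1158 ± 122 TPM in PZT-2 (SD, n = 2). Its normalized counts were 7875 and 8036 in PANC-1 and 12502 and 14590 in PZT-2. The lowest PZT-2 library lay well above the highest PANC-1 library, and the PZT-2 libraries were farther apart than the PANC-1 libraries. The log2 fold change was 0.77 (SE 0.0763, edgeR adjusted p = 0.00114) and lay between 0.65 and 0.87 when any 1 library was dropped. All of its counts came from 1 transcript, NM_004048.

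HLA-E presents peptides from the leaders of other class I molecules to the NKG2 receptors of natural killer cells. Its normalized counts were 2619 and 2199 in PANC-1 and 3747 and 3902 in PZT-2. Both PZT-2 libraries were higher, by more than the gap between the PANC-1 libraries. HLA-E rose by 0.67 on the log2 scale (SE 0.0883, edgeR adjusted p = 0.00294), and it lay between 0.54 and 0.79 when any 1 library was dropped.

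HLA-B is a classical heavy chain, which presents peptides to CD8 T cells. It read 1660 and 1328 normalized counts in PANC-1 and 2064 and 2164 in PZT-2. The groups did not overlap, and PANC-1 replicate 2 was the lowest library. HLA-B rose by 0.50 on the log2 scale (SE 0.106, edgeR adjusted p = 0.0152). Without PZT-2 replicate 2 the adjusted p was 0.0834, with a log2 fold change of 0.47.

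HLA-C, the classical heavy chain that is also a main ligand of killer cell immunoglobulin-like receptors, read 1704 and 1451 normalized counts in PANC-1 and 1716 and 1765 in PZT-2. The PZT-2 libraries lay just above PANC-1 replicate 1. The log2 fold change was 0.14 (SE 0.0860, edgeR adjusted p = 0.266), with a 95% interval from -0.06 to 0.35. Without PANC-1 replicate 1 the log2 fold change was 0.26 and passed the test, at an adjusted p of 0.0112, and without PANC-1 replicate 2 it was 0.02, at an adjusted p of 0.82.

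HLA-F, a nonclassical heavy chain of restricted expression, was near the limit of what the depth could show. It had 186 estimated reads over the 4 libraries, with 65.3 and 43.4 normalized counts in PANC-1 and 34.2 and 45.5 in PZT-2. The groups overlapped. The log2 fold change was -0.43 (SE 0.300, edgeR adjusted p = 0.333), and its 95% interval ran from -1.16 to 0.29 so that a change was not detectable at this depth.

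Summed over the 4 heavy chain members, the normalized counts were 6048 and 5022 in PANC-1 and 7563 and 7877 in PZT-2, which gave 0.48 as the log2 fold change (SE 0.0890, edgeR adjusted p = 0.00953). Without PZT-2 replicate 2 the log2 fold change was 0.45 and the adjusted p was 0.0609. Shares of this sum and ratios of 2 genes are of counts, not divided by length, so they compare libraries and do not rank the genes. HLA-E took 43.3% and 43.8% of the counts in PANC-1 and 49.6% and 49.5% in PZT-2. The share of HLA-C went from 28.2% and 28.9% to 22.7% and 22.4%. The share of HLA-B stayed between 26.5% and 27.5% in all 4 libraries, and HLA-F was at most 1.08%.

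Ratios of 2 genes within a library do not depend on how libraries were scaled. HLA-E over HLA-C was 1.54 and 1.51 in PANC-1 and 2.18 and 2.21 in PZT-2. HLA-B over HLA-C was 0.974 and 0.915 in PANC-1 and 1.20 and 1.23 in PZT-2. In both ratios the lines were apart by more than the libraries of a line were. The lines overlapped in B2M over HLA-E, 3.01 and 3.65 in PANC-1 against 3.34 and 3.74 in PZT-2, and in TAP1 over TAP2, where both PZT-2 libraries lay between the PANC-1 values of 1.19 and 0.987. The smallest p that an exact permutation test allows for 2 against 2 libraries is 0.333, so no test was made on the ratios. A heavy chain ratio may also depend on how reads shared by these similar genes were divided. In the reference alleles of GENCODE 29, 15.6% of the 31-base words of HLA-B, 20.2% of those of HLA-C and 11.5% of those of HLA-E also occur in other genes, and none of those of B2M. For the transcripts of TAP2 the share ran from 35.8% to 80.4%, all with the same other gene of that annotation. The alleles of PANC-1 were not given in the sources used here, and their part in the division was not tested.

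TAP1 and TAP2 pair to form the peptide transporter. TAP1 read 2278 and 2029 normalized counts in PANC-1 and 1980 and 2129 in PZT-2. TAP2 read 1914 and 2055 in PANC-1 and 1903 and 1928 in PZT-2. For each gene the libraries of the lines overlapped. The log2 fold change was -0.07 (95% interval -0.25 to 0.12, edgeR adjusted p = 0.572) for TAP1 and -0.05 (95% interval -0.20 to 0.10, adjusted p = 0.587) for TAP2. The intervals leave out a change as large as that of HLA-E in either direction for both genes.

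TAPBP, the tapasin gene, read 4286 and 4006 normalized counts in PANC-1 and 4823 and 4498 in PZT-2. Both PZT-2 libraries were higher, the lower of them by less than the gap between the PANC-1 libraries. The log2 fold change was 0.17 (SE 0.0626, 95% interval 0.02 to 0.32), and the edgeR adjusted p of 0.0917 missed the threshold. It passed the test in limma-trend on log2(TPM + 1), at an adjusted p of 0.0497, and in edgeR without PANC-1 replicate 1, at 0.0221.

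ERAP1, the aminopeptidase that trims peptides in the endoplasmic reticulum, read 1276 and 1344 normalized counts in PANC-1 and 940 and 868 in PZT-2. It was the only member with both PZT-2 libraries below both PANC-1 libraries. It fell by 0.54 on the log2 scale (SE 0.0709, edgeR adjusted p = 0.00296), and the change lay between -0.59 and -0.48 when any 1 library was dropped. Most of its counts were assigned to NM_001198541, 68.0% in PANC-1 and 70.3% in PZT-2.

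**Figure D2:**
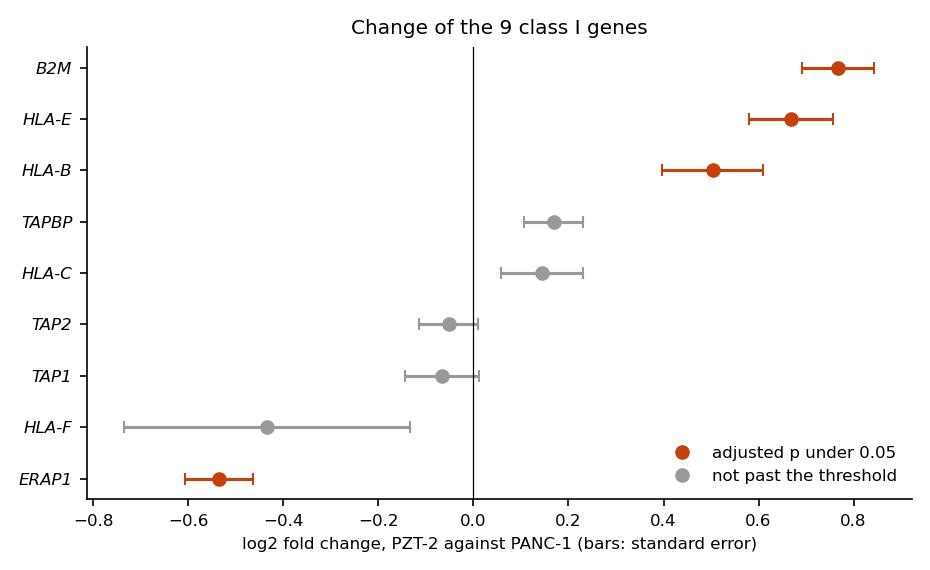
Log2 fold change of each of the 9 genes in PZT-2 against PANC-1 (x axis; points, edgeR estimates; bars, standard error), ordered from highest to lowest. B2M, HLA-E and HLA-B lie above 0 and ERAP1 below 0 with an adjusted p under 0.05 (orange), and the other genes (grey) did not pass, with the widest bar for HLA-F.

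Ordered by TPM, PANC-1 had B2M first, then TAPBP (148 ± 4.06), HLA-C (138 ± 12.4), HLA-B (127 ± 17.1) and HLA-E (119 ± 12.2), all SD with n = 2. From TAPBP to HLA-E each gene overlapped its neighbour in that order between the 2 libraries. Below them came TAP1 (97.5 ± 5.38), TAP2 (68.1 ± 5.06), ERAP1 (34.2 ± 1.85) and HLA-F (6.05 ± 1.68), none of which overlapped its neighbour. In PZT-2 the order after B2M was HLA-E (197 ± 4.83), HLA-B (187 ± 5.59), TAPBP (173 ± 9.59) and HLA-C (158 ± 2.58), with no overlap between neighbours. TAP1 (97.2 ± 3.53), TAP2 (66.6 ± 1.37), ERAP1 (24.5 ± 1.39) and HLA-F (4.98 ± 0.888) kept their places. HLA-E thus moved above HLA-B, HLA-C and TAPBP in the order, which is a description of levels with no test.

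The 9 genes had 18 transcripts with enough counts to test. None passed edgeR's test over transcripts, 5 had an unadjusted p under 0.05, and 5 passed DESeq2's test. Over all 30403 transcripts edgeR called 0.148% and DESeq2 called 14.5%, and 5617 had an unadjusted edgeR p under 0.05. By share of its gene, NM_001098478 of HLA-F was the transcript with the largest shift, 7.04% of the counts in PANC-1 and 35.1% in PZT-2, at a mean of 3.83 and 14.0 normalized counts. A minor transcript of TAPBP, NM_172209, read 25.9 and 23.6 normalized counts in PANC-1 and 96.5 and 64.1 in PZT-2 (edgeR adjusted p = 0.164, DESeq2 adjusted p = 0.0233). HLA-B, HLA-E and B2M each had 1 transcript with values.

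Of the 9 genes, 7 lie in the MHC on the short arm of chromosome 6, in GENCODE 29 on GRCh38. These coordinates do not come from the build hg19 that the processing notes name. HLA-F spans chr6:29722775-29738528 and HLA-E chr6:30489467-30494205, both on the plus strand. HLA-C spans chr6:31268749-31272130, TAP2 chr6:32821833-32838780, TAP1 chr6:32845209-32853978 and TAPBP chr6:33299694-33314387, all on the minus strand. The HLA-B model, chr6:31269491-31357188 on the minus strand, includes a long transcript that reaches over HLA-C. B2M is on chromosome 15 (chr15:44711487-44718877, plus strand) and ERAP1 on chromosome 5 (chr5:96760810-96808100, minus strand). Of 140 other tested genes between 28 and 34 Mb of chromosome 6, 15 rose and 15 fell, with a median log2 fold change of -0.06. These calls are 21.4%, against 29.4% of all 14411 tested genes with a position.

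On chromosome 15 more genes rose than fell, and on chromosome 5 more fell than rose, though most genes of each did not pass the test. Of 501 other tested genes of chromosome 15, 143 rose and 19 fell, with a median log2 fold change of 0.24. Of 639 other tested genes of chromosome 5, 58 rose and 128 fell, with a median of -0.12. Calls in either direction were 32.3% on chromosome 15 and 29.1% on chromosome 5. Among all genes tested, 14.7% rose and 13.7% fell. Among the 20 tested genes nearest to B2M, 10 on each side, 7 rose and none fell, with a median of 0.22. The change of B2M, 0.77, was above that median and the change of ERAP1, -0.54, was below the -0.21 of its own 20 neighbours. ERAP2, the next gene to ERAP1 and another trimming aminopeptidase of the endoplasmic reticulum, fell by 0.74 on the log2 scale (SE 0.0878, edgeR adjusted p = 0.00203). CAST, which overlaps ERAP1 on the opposite strand, fell by 0.28 (adjusted p = 0.0113). The libraries were made with a kit that marks the strand, but the strand setting of the count step was not given in the sources used here, so reads from overlapping genes may be mixed. The part of chromosome-wide level in the changes of B2M and ERAP1 was not tested.

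The other genes of the pathway, from lists made for this comparison, numbered 68, of which 58 were tested, 11 rose and 8 fell. Without PZT-2 replicate 1 the counts were 4 and 2, and without PZT-2 replicate 2 they were 1 and 2. These calls are 32.8%, near the 28.4% of all genes, and the median log2 fold change was -0.04. In peptide loading, 1 of 6 rose and 1 fell. PDIA3, the disulfide isomerase bound to tapasin, went from 8089 and 8701 normalized counts to 12567 and 12096 (log2 fold change 0.55, edgeR adjusted p = 0.00111), and BCAP31, an export receptor of the endoplasmic reticulum, fell by 0.24. In peptide trimming, 1 of 7 rose and 2 fell. ERAP2 went from 433 and 446 normalized counts to 265 and 261, THOP1, a cytosolic peptidase that destroys class I ligands, fell by 0.26, and NPEPPS, a cytosolic aminopeptidase, rose by 0.20.

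In the immunoproteasome and its activator, 2 of 5 genes fell, both of them the activator subunits PSME1 and PSME2, by 0.29 and 0.25 on the log2 scale. The 3 catalytic subunits PSMB8, PSMB9 and PSMB10 did not pass, with log2 fold changes of -0.19, -0.13 and -0.15. Of 3 constitutive counterparts, PSMB6 fell, by 0.21. In the list of 15 regulators of class I transcription, 1 rose and 2 fell. RFXANK, a subunit of the RFX complex, and NFYC, a subunit of NF-Y, fell by 0.31 and 0.22.

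In the list of interferon receptors and kinases, 4 of 7 rose and none fell, where 14.7% of all genes rose and 13.7% fell. JAK2, at low counts, read 13.5 and 32.5 in PANC-1 and 0 and 8.90 in PZT-2 and did not pass the test. IFNGR1 went from 248 and 213 normalized counts to 335 and 350 (log2 fold change 0.58, edgeR adjusted p = 0.0112), IFNAR2 rose by 0.47, IFNGR2 by 0.40 and JAK1 by 0.23. Of 13 class I-like genes, 11 were tested, of which ULBP3, a ligand of the activating receptor NKG2D, FCGRT, the heavy chain of the neonatal Fc receptor, and PROCR rose, by 0.72, 0.57 and 0.30. FCGRT pairs with beta-2-microglobulin. Of 10 class II genes and regulators, 2 had values, and CD74, the class II invariant chain, rose from 73.1 and 63.3 to 120 and 132 normalized counts (log2 fold change 0.89, SE 0.166, past the threshold in edgeR). HLA-DRA and the regulator CIITA had no value. The list of other class I heavy chain genes had 2 tested genes, neither of which passed.

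**Figure D3:**
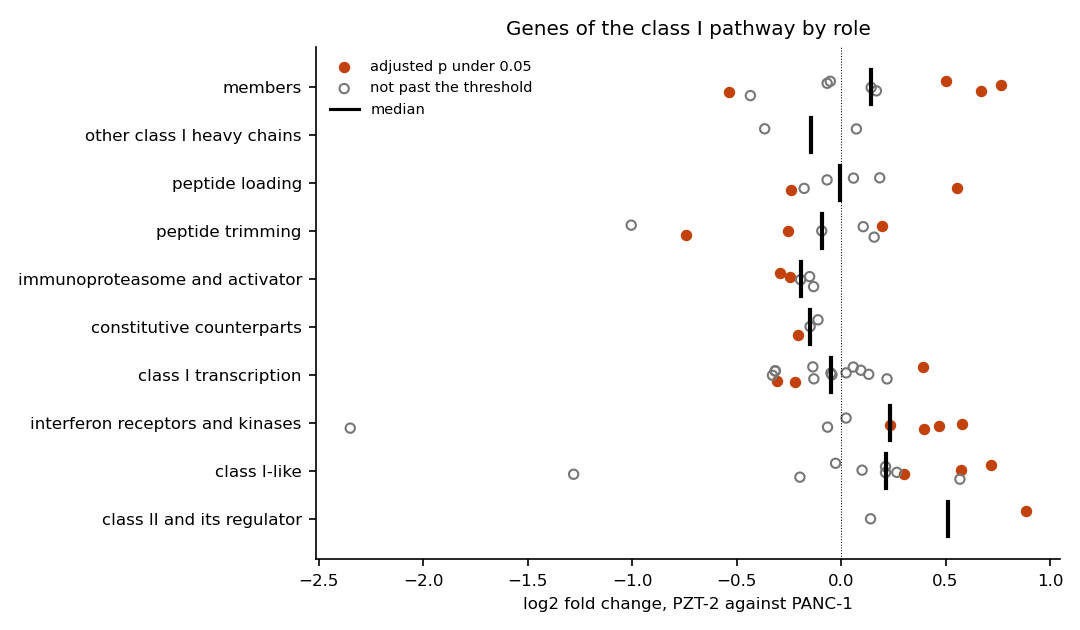
Log2 fold change of each tested gene in PZT-2 against PANC-1 (x axis) by list (y axis), with the 9 members at the top. Filled orange points passed the edgeR test, open points did not, and the black bar is the median of the list. The lists of interferon receptors and kinases and of class I-like genes have medians above 0 (0.23 and 0.21), and the immunoproteasome list has its median below 0 (-0.19).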

How the data were processed

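RNA-seq of 2 PANC-1 and 2 PZT-2 libraries was used. The authors trimmed paired reads of 76 bases (Trim Galore 0.4.1) and estimated counts of RefSeq transcripts with kallisto 0.43.0, and sleuth 0.29.0 filtered and scaled the deposited estimated counts. The scaling factor of each library, found from the values, was undone before counts were rounded and summed per gene. TPM were rebuilt from these counts and the deposited effective lengths. Genes absent after that filter have no value, which is not 0. The deposited results of sleuth's own comparison were not used. Of the transcripts, 103 stayed unnamed (0.0466% of counts). Genes reaching 5 counts in 2 or more libraries were tested with edgeR 4.0.16 (TMM, quasi-likelihood) in R 4.3.3, with Benjamini-Hochberg adjustment and a threshold of 0.05. Alternatives used DESeq2 1.42.0, limma 3.58.1, other scalings and filters, the most abundant transcript, a replicate block and leaving out each library. Scripts were tested on simulated data. Named are the 9 members, the targeted genes, up to 4 called genes of each list with the largest change and the 5 genes nearest to B2M in pattern. Neighbours of B2M and ERAP1, transcripts and genes given as values beside these were named after their values were seen. Members and lists were chosen with earlier results of these data known. Counting error and the spread of 2 libraries limit the precision. Results for some listed genes are not reported here.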

Additional observations from a re-analysis of the deposited data

How the results depend on the processing

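B2M, HLA-E and ERAP1 kept their direction and passed the test under all 13 alternatives run. HLA-B lost its call in 2 of them, without PZT-2 replicate 2 and with each gene's most abundant transcript alone (edgeR adjusted p = 0.06). HLA-B had 1 transcript with values, so that setting changed the counts of other genes and not its own. Its log2 fold change there was 0.5003, against 0.5038 in the main test. Changes near 0 turned for TAP1, which ranged from -0.1564 to 0.01335 without 1 library (above 0 without PANC-1 replicate 1), and for TAP2 with its most abundant transcript alone (0.007072), neither past the threshold. Without 1 library, 2 to 5 members were called higher, 5 of them without PANC-1 replicate 1, and 1 lower. With a further minimum of a 1.5-fold change 2 members were called higher, since HLA-B rose by less (1.42-fold). No member was called lower under it, since ERAP1 fell by less, and the summed heavy chains (0.48) did not reach it. Without 1 library that sum ranged from 0.34 to 0.62, and without PZT-2 replicate 2 (0.45) it missed the threshold. Other pathway genes called higher numbered 5 with the most abundant transcript alone, 2 with the 1.5-fold minimum and 1 to 12 without 1 library, and those called lower 3, 1 and 2 to 10, and 4 with limma-trend. All genes called higher and lower numbered 1133 and 996 with the most abundant transcript alone, and 1019 and 786 with the 1.5-fold minimum. Without 1 library they ranged from 1083 to 2466 and from 935 to 2237, the lowest of each without PZT-2 replicate 2 and the next (1269 and 1164) without PZT-2 replicate 1. Tests on simulated counts of this depth made 180 calls, of which 26 were unchanged genes. That is more than the threshold implies, so calls close to it are the least secure. The simulation changed 100 of 14835 genes by 1.5-fold and 100 by 2-fold, fewer than the 4293 genes called in the data. The share of unchanged genes among calls may thus differ in the data. The causes of these differences were not tested.

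The replicate numbers were not taken as pairs: with 2 pairs, the correlation of deviations between libraries of the same number was -0.0236. With the replicate block, 4 other pathway genes were called lower in place of 8, and 10 higher in place of 11. All genes called higher and lower numbered 1987 and 1762 with it, against 2224 and 2069 in the main test. No call of a member changed.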

Other observations

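The genes whose pattern over the 4 libraries was nearest to that of B2M, by Euclidean distance of centred log2 CPM among genes that averaged 100 normalized counts or more, were MCFD2, RHBDL2, TMEM206, MRPL33 and MCCC1. Their distances ran from 0.0276 to 0.0540. MCFD2, a cargo receptor subunit between the endoplasmic reticulum and the Golgi, read 1668 and 1736 normalized counts in PANC-1 and 2716 and 3124 in PZT-2, highest in PZT-2 replicate 2 as B2M was. MRPL33, a protein of the mitochondrial ribosome, read 575 and 601 in PANC-1 and 952 and 1071 in PZT-2. With 4 libraries many genes can share such a pattern, and no test was made.

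Measured per length, the ratio of B2M to the sum of the 4 heavy chain members, both in TPM, was 1.52 and 1.87 in PANC-1 and 2.00 and 2.24 in PZT-2. The libraries of the lines did not overlap in this ratio, and PANC-1 replicates differed from each other more than PANC-1 replicate 2 differed from PZT-2 replicate 1. The ratio leaves out the other heavy chain genes.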
